A study of Mus musculus with 4 samples.

Results

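The genes described here are 10 regulators of messenger RNA: Cpeb2, Cpeb3 and Cpeb4 of the CPEB family, Zfp36, Zfp36l1 and Zfp36l2 of the ZFP36 family, Mbnl1 and Mbnl2 of the muscleblind family, and the polyA-binding protein genes Pabpc1 and Pabpc4. They were chosen by symbol from 4 families, with earlier results of these data known, by a rule that uses no measured value, and all 10 were among the 19564 gene symbols measured. Red cell precursors came straight from mouse fetal liver at stage E14.5 and were sorted, without culture, by the erythroid antigen TER119 and by CD71, the transferrin receptor, into 4 populations of rising maturity. R2 holds proerythroblasts and early basophilic erythroblasts, R3 early and late basophilic ones, R4 mostly polychromatophilic and orthochromatophilic ones, and R5 late orthochromatophilic erythroblasts with reticulocytes. No treatment or mutant allele is given for any population. The sources used here give neither the strain nor the number of embryos behind each, and neighbouring populations share cell stages. Each population gave 1 library of polyA-enriched RNA, so no difference has a replicate check and no test across genes was made.

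Proteins of the CPEB family bind a U-rich element in the tail end of messenger RNAs, the cytoplasmic polyadenylation element (CPE), and set how long the polyA tail is and whether the message is translated. ZFP36 proteins bind AU-rich elements (ARE) with a pair of zinc fingers and bring in the CCR4-NOT deadenylase, which shortens the tail and starts decay. Muscleblind proteins are zinc finger splicing regulators, and the cytoplasmic polyA-binding proteins coat the tail and tie it to the translation initiation machinery. In red cell maturation, where the nucleus is condensed and lost while globin is still made, CPEB4 is known as a translational repressor induced late, ZFP36L2 as a factor that keeps early erythroid progenitors self-renewing, MBNL1 as a splicing regulator, and PABPC4 as a protein that holds erythroid messages stable.

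The values are RPKM, read numbers scaled by gene length and library size, and the ratios are log2 ratios of RPKM + 1, which understate the change of low genes. A gene is called higher or lower at a ratio of 2-fold or more. Steps in the low values implied between 20723200 and 27419800 reads per library. Read numbers, with the 95% intervals and the 3-read floor below, were estimated from the RefSeq transcript length and cover counting error only. Globin genes made up 5.52%, 59.4%, 80.4% and 81.9% of all RPKM from R2 to R5. The median of the 9942 genes that reached 1 RPKM in at least 1 library stood at -1.09 from R2 to R3, -0.77 from R3 to R4, 0.27 from R4 to R5 and -1.65 from R2 to R5. With each library scaled by the median of its gene ratios, these medians were -0.37, -0.06, 0.07 and -0.42. Each member is therefore also placed by its percentile among those genes, as deposited unless said otherwise; because of the added 1 RPKM, a percentile can still move with the scaling. All 10 members passed that filter, Cpeb2 only through R2 and Cpeb3 and Mbnl2 at low levels. All 11 measured erythroid markers, among them Slc4a1 (band 3) and Hba-a1 (alpha-globin), were at 1 RPKM or more in every library. All 9 hepatocyte markers were too, so this level does not by itself check the erythroid label.

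**Figure D1:**
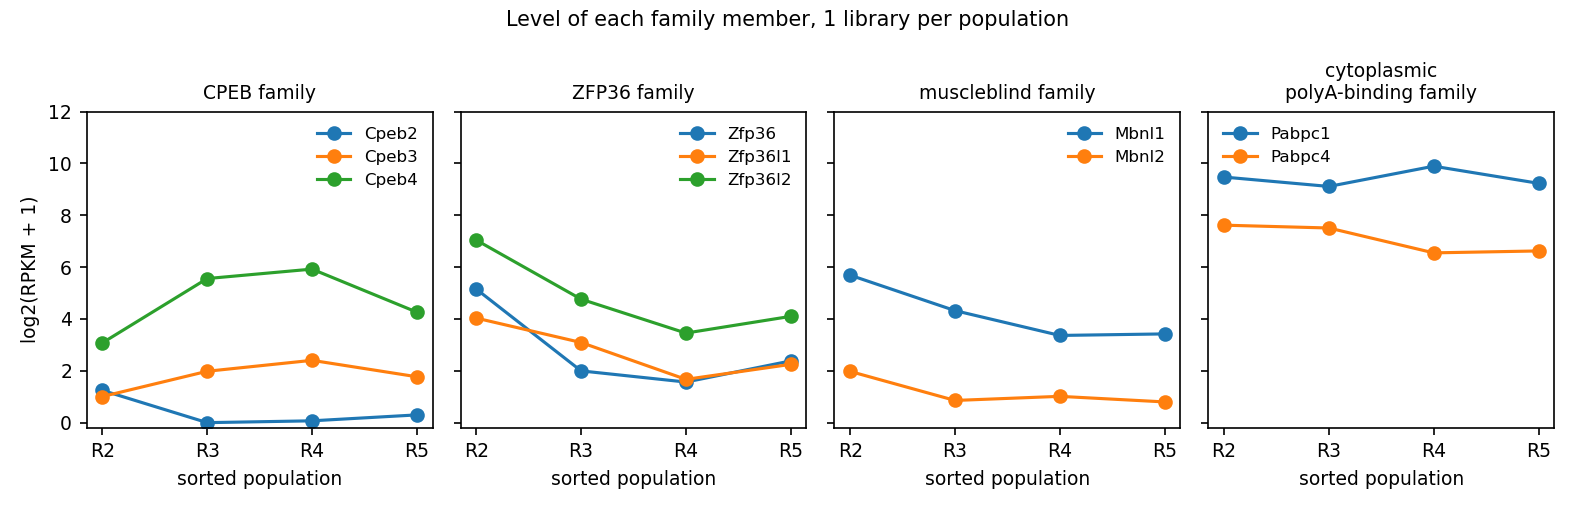
Level of each member, as log2(RPKM + 1), in the 4 sorted populations (x axis), with 1 point per library and a line joining the points of a gene. As deposited, Cpeb4 and Cpeb3 were highest in R4 and the ZFP36 and muscleblind genes in R2 (Mbnl2 in R4 with median scaling). Of all genes past the filter, 86.2% were highest in R2 and 3.21% in R4 as deposited. Pabpc1 stayed the most abundant member in every library.

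The members' own messages were searched for the letters of the elements that these families bind, and matches of Cpeb4, Cpeb2 and Zfp36 are shown because the results below turn on these genes. The last 500 bases of the 3′ UTR were searched on the message strand for TATTTAT, the core of an ARE, and for TTTTAT or TTTTAAT, forms of the CPE, in DNA letters. The letters can overlap, as in a T-rich stretch that ends in TATTTAT. In all, 12400 genes had a 3′ UTR that long in GENCODE (build GRCm38), of which 15.3% held the ARE letters and 47.9% the CPE letters. Zfp36 held 3 ARE matches in its window, within 200 bases of the transcript's end. These are, with the match in capitals:
Zfp36, chr7:28376967-28376993, minus strand: gtgggcccttTATTTATgacgacttta
Zfp36, chr7:28376952-28376978, minus strand: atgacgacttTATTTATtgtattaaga
Zfp36, chr7:28376927-28376953, minus strand: gattttatagTATTTATatatattggg

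Cpeb4 held 2 ARE matches and 4 CPE matches in its window, and its 3′ UTR of 4102 bases held 3 and 17 in all. The ARE pair and the CPE match nearest to the end are shown:
Cpeb4, ARE, chr11:31935372-31935398, plus strand: gaggttgtagTATTTATtctagcattt
Cpeb4, ARE, chr11:31935550-31935576, plus strand: tgcaaatgacTATTTATaccagtatgc
Cpeb4, CPE, chr11:31935408-31935433, plus strand: gtaattcattTTTTATtaaagtcatt
Cpeb2 held 1 ARE and 8 CPE matches in its window, and its ARE match lies 71 bases before the end:
Cpeb2, chr5:43289644-43289670, plus strand: tgctgccaacTATTTATattaagtaat
Of the other members, Zfp36l1 held 1 ARE and 2 CPE matches, Mbnl2 held 2 and 2, Mbnl1 0 and 3, Cpeb3 0 and 2, and Zfp36l2 0 and 0. Over their whole 3′ UTRs these last 3 held 2 and 8, 1 and 6, and 3 and 4, so the counts depend on the window. Pabpc1 and Pabpc4 have 3′ UTRs of 439 and 332 bases and were not searched. The windows of Cpeb4 and Cpeb2 were 74.8% and 73.8% A or T, and a match is not a binding site.

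The stretches upstream of the gene start are shown for Cpeb4 and Zfp36, the members with the highest and lowest ratios in R3 against R2. RefSeq promoter entries (build GRCm38.p6) were found for 7 of the 10 members. The 250 bases before the start were searched on both strands for GATA motifs (the letters GATA after an A or T and before an A or G) and for a KLF-type motif (CCNCNCCC), the kinds of sequence bound by GATA1 and KLF1, the main erythroid activators. Of 32851 promoter windows of that length, 26.5% held a GATA match and 45.9% a KLF-type match. Matches are in capitals, those of the same motif can overlap, and the last base printed lies next to the gene start:
Cpeb4, chr11:31870690-31870939, plus strand: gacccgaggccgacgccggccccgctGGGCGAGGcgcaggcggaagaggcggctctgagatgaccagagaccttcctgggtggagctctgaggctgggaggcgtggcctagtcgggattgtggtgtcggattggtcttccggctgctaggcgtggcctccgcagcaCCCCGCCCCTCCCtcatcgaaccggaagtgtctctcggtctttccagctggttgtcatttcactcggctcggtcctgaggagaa
Zfp36, chr7:28379229-28379478, minus strand: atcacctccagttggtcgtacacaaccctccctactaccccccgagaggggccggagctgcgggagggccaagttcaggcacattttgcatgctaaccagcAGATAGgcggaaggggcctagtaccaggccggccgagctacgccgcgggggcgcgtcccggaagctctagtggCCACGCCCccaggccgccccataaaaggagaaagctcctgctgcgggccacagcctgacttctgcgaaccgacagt
The Cpeb4 window held 3 KLF-type matches and no GATA match, and the Zfp36 window 1 of each. Zfp36l1 held 5 KLF-type matches and no GATA match. These are matches of letters in 1 short window, and elements farther away were not searched.

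Cpeb4, whose element matches and upstream window are printed above, had the highest ratio of the members from R2 to R3 and the lowest from R4 to R5. Its level was 7.44, 46.1, 59.6 and 18.2 RPKM from R2 to R5, from an estimated 1077, 7445, 10304 and 2376 reads. R2 was the lowest and R4 the highest, and the 95% counting intervals of the 4 libraries did not overlap. From R2 to R3 the level was 6.19-fold higher (95% counting interval 5.81 to 6.61), a log2 ratio of 2.48 that only 48 of the 9942 genes exceeded. From R4 to R5 it was 3.28-fold lower (3.13 to 3.43), a log2 ratio of -1.66, and only 3 genes had a lower one. The rank held with median scaling, at percentile 99.5 for R3 against R2 and 0.0402 for R5 against R4. Cpeb4 thus stood among the highest ratios from R2 to R3 and among the lowest ones from R4 to R5.

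Cpeb3, a close relative that also acts on translation, followed the same order at a far lower level. It stood at 1.01, 2.95, 4.29 and 2.41 RPKM from R2 to R5. R3 was 2.92-fold above R2 (2.40 to 3.56), and R5 was 1.78-fold below R4 (1.55 to 2.04). On the RPKM + 1 scale its ratios were 0.97, 0.42 and -0.63 for the 3 steps, at percentiles 96.0, 98.1 and 2.55, so it missed the 2-fold limit in each. The level of Cpeb4 was 7.37 times that of Cpeb3 in R2, 15.6 times in R3, 13.9 times in R4 and 7.55 times in R5, all per length.

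Cpeb2 went the other way. It was at 1.37 RPKM in R2, listed at 0 in R3, and at 0.05 in R4 and 0.23 in R5, from an estimated 222, 0, 10 and 34 reads. The R2 level was 82.5 times the level that 3 reads would give in R3 (0.0166 RPKM, per library). From the counts, the lower 95% limit of the fold of R2 over R3 was 66.6. Cpeb2 passed the filter only through R2. On the RPKM + 1 scale, which understates so low a gene, R3 against R2 was -1.24, against -1.09 for the median gene. That ratio was at percentile 42.4, and at 30.5 with median scaling. Its ratio in R5 against R2 was -0.95, at percentile 78.6. R5 was 4.60-fold above R4 (2.17 to 10.2), on few reads. Cpeb1, the founding member of the family, was listed at 0 in R2, R3 and R4 and at 0.04 RPKM in R5, an estimated 3 reads. Within the family, Cpeb4 held 75.8%, 94.0%, 93.2% and 87.2% of the sum from R2 to R5. Cpeb2 held 14.0% at R2, had no read at R3, and held 0.0782% at R4 and 1.10% at R5. These shares do not depend on how the libraries are scaled to each other.

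The genes nearest to Cpeb4 in pattern were sought among 5597 genes that reached 10 RPKM in at least 1 library, by the Euclidean distance between centred log2(RPKM + 1) profiles over the 4 populations. They were Spna1, the erythroid alpha-spectrin gene, at a distance of 0.40, Sox6, a transcription factor of red cell maturation, at 0.44, and Trak2, which links mitochondria to motor proteins, at 0.54. Only 2 genes lay within 0.5 of Cpeb4, against 307 for Zfp36, 623 for Zfp36l2, 1674 for Zfp36l1, 1697 for Mbnl1, 497 for Pabpc4 and 22 for Pabpc1. Spna1 was at 15.8, 90.7, 86.1 and 37.0 RPKM from R2 to R5, and Sox6 at 2.99, 21.4, 22.2 and 10.3. With 4 points per gene, such likeness is a description.

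The ZFP36 members were highest in R2, where Cpeb4 was lowest. So were 86.2% of all genes past the filter as deposited, and 62.4% with median scaling. Zfp36l2, the most abundant of the 3, stood at 130, 26.1, 9.96 and 16.1 RPKM from R2 to R5. R2 was above every other library, and as deposited R5 lay between R4 and R3. With median scaling R5 was at 22.5, just above R3 at 22.2. As deposited, R3 was 5.0-fold below R2 (4.78 to 5.23) and R4 a further 2.62-fold below R3 (2.43 to 2.83). R5 was 1.62-fold above R4 (1.49 to 1.77). With median scaling the log2 ratio of Zfp36l2 in R4 against R3 went from -1.31 to -0.29, and in R5 against R4 from 0.65 to 0.31. Its log2 ratio in R5 against R2, -2.94, was at percentile 1.82, and 3.30 with median scaling.

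Zfp36, also called tristetraprolin, had the lowest ratio of the members in R3 against R2. It was at 34.5, 2.99, 1.96 and 4.21 RPKM from R2 to R5. R3 was 11.5-fold below R2 (10.01 to 13.3), a log2 ratio of -3.15 with only 79 genes lower, at percentile 0.805 as deposited and 0.825 with median scaling. R5 was then 2.15-fold above R4 (1.74 to 2.65), a ratio of 0.82 on the RPKM + 1 scale, at percentile 90.8. Set against R3 rather than R2, R5 was the higher one, at a log2 ratio of 0.38.

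The larger step of Zfp36l1 came between R3 and R4. It was at 15.4, 7.52, 2.18 and 3.75 RPKM from R2 to R5. R3 was 2.04-fold below R2 (1.84 to 2.26), at percentile 58.1 of all genes. On the RPKM + 1 scale that ratio was -0.94, which missed the 2-fold limit. R4 was 3.45-fold below R3 (2.91 to 4.09), at percentile 6.72. Zfp36l3 had at most an estimated 2 reads in any library. As a family the ZFP36 genes summed to 180, 36.7, 14.1 and 24.1 RPKM from R2 to R5, and Zfp36l2 held 72.3%, 71.3%, 70.5% and 67.0% of that. The share of Zfp36l1 was 8.52%, 20.5%, 15.4% and 15.6% over the same libraries, and that of Zfp36 was 19.1%, 8.16%, 13.9% and 17.5%. The CPEB genes summed to 9.82, 49.0, 64.0 and 20.9 RPKM in the same libraries, so Cpeb4 stood at 0.0570 times the level of Zfp36l2 in R2, 1.76 times in R3, 5.99 times in R4 and 1.13 times in R5. Cpeb4 was thus the lower of the pair in R2 and the higher in the other 3 libraries.

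**Figure D2:**
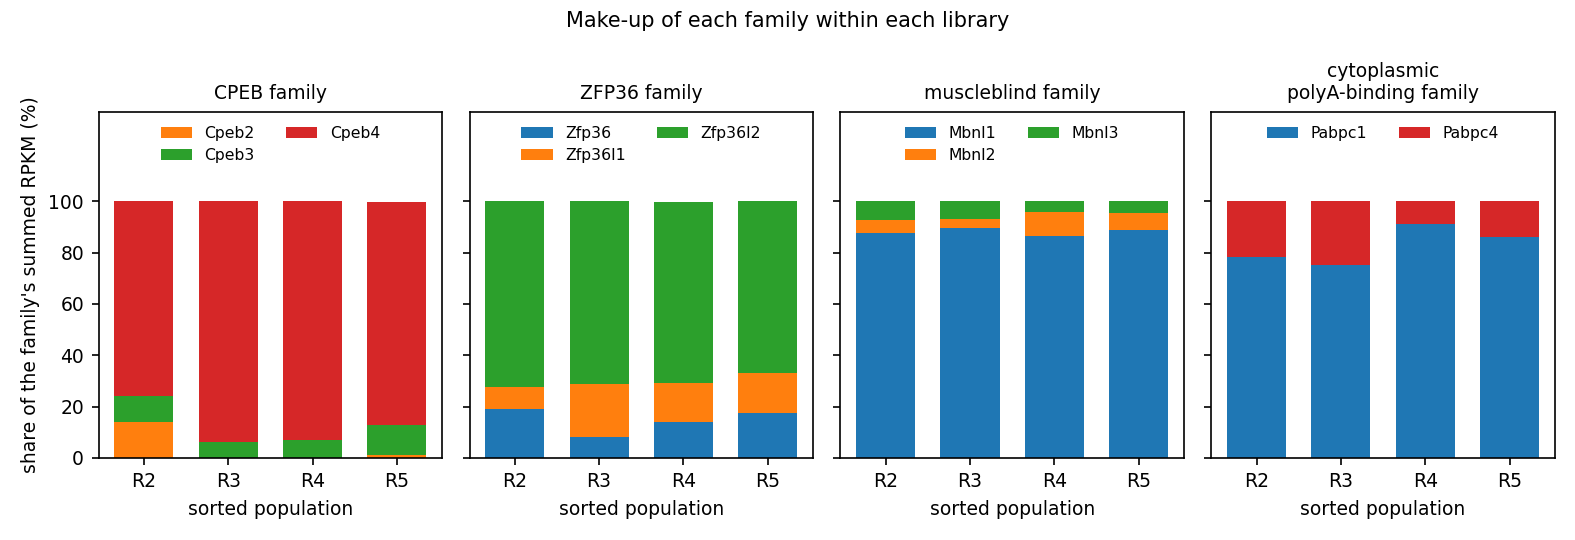
Share of each gene in the summed RPKM of its family (y axis, percent), within each of the 4 libraries (x axis). Genes that stay under 1% in every library are not drawn. Cpeb4 filled 94.0% of the CPEB sum in R3, and Pabpc1 went from 75.3% of the cytoplasmic polyA-binding sum in R3 to 91.1% in R4.

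The nearest genes to Zfp36 in pattern were Mcpt8, a protease gene of basophils, at a distance of 0.03, Limd2 at 0.06 and Rnf130 at 0.06. The 11 granulocyte markers summed to 6129, 427, 235 and 470 RPKM from R2 to R5, with none at 0, and Mpo (myeloperoxidase) alone stood at 1966, 95.2, 59.1 and 146. Lymphoid markers, 7 of 8 measured, summed to 82.9, 8.44, 5.11 and 8.48 RPKM, with Cd3e at 0 in every library. Macrophage markers summed to 99.1, 57.6, 24.3 and 57.1 RPKM over 10 genes, of which Cd163 was at 0 in R2. Megakaryocyte markers summed to 44.6, 45.7, 24.4 and 72.4 RPKM over 8 genes, and hepatocyte markers to 232, 566, 193 and 411 over 9. Zfp36 and Zfp36l2 are also expressed in such cells, and the part of these cells in the R2 level was not tested. In a sorted population, fewer cells of a type and less RNA per cell cannot be told apart.

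Zfp36 is itself an immediate early gene, switched on within minutes by growth factors or stress. Jun was at 44.6, 2.10, 1.76 and 6.22 RPKM from R2 to R5, and Fos at 34.7, 1.80, 1.61 and 5.17, as deposited the same order of libraries as Zfp36. Other genes of that list differed: Btg2, which restrains proliferation and recruits the deadenylase, was at 10.4, 52.7, 39.5 and 26.5 RPKM, and Ier3 at 7.48, 13.2, 18.2 and 27.4. Of 14 immediate early genes past the filter, 1 was higher and 7 lower in R3 than in R2 (all genes 3.81% and 55.1%), with a median of -1.52 against -1.09 for all genes. With median scaling 3 were higher and 7 lower (all genes 8.38% and 18.0%). In R5 against R4, 3 were higher and 0 lower (all genes 3.96% and 0.604%), with a median of 0.68 against 0.27. Whether sorting or handling added to these genes was not tested.

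Mbnl1 was the main muscleblind gene in every library. Its level was 50.5, 19.0, 9.29 and 9.72 RPKM from R2 to R5, so R4 and R5 were the lowest and their counting intervals overlapped. R3 was 2.66-fold below R2 (2.54 to 2.78) and R4 2.04-fold below R3 (1.92 to 2.18). Among all genes these ratios lay at percentiles 36.3 for R3 against R2, 35.5 for R4 against R3 and 28.8 for R5 against R4. On the RPKM + 1 scale, R4 against R3 was -0.96, which missed the 2-fold limit. With median scaling it turned to 0.05, at percentile 64.0. The nearest genes in pattern, Setd5, Nucks1 and Uqcrc2, lay within 0.03 of it. Mbnl2 was at 2.93, 0.81, 1.02 and 0.74 RPKM, and R3, R4 and R5 had overlapping intervals. Mbnl3, the relative that opposes muscle differentiation, was at 4.26, 1.43, 0.45 and 0.50. Mbnl1 held between 86.3% and 89.4% of the family in all 4 libraries. Gene-level RPKM does not tell the splice forms of these genes or of their targets apart.

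Pabpc1, the general polyA-binding protein, was the most abundant member by far. It stood at 709, 551, 948 and 600 RPKM from R2 to R5. R4 was the highest and R3 the lowest, within a 1.72-fold range as deposited. With median scaling the range was 5.24-fold and R2 was the lowest. R4 was 1.72-fold above R3 (1.70 to 1.74) while the median gene stood at -0.77, and only 86 of 9942 genes had a higher ratio than its 0.78, at percentile 99.1. From R4 to R5 it was 1.58-fold lower (1.56 to 1.60), at percentile 2.29. The rank of Pabpc1 within a library was high throughout, with 99.7% of all symbols below it in R2 and 99.9% in R4. Pabpc1 has processed copies elsewhere in the genome, and how reads shared with them were counted is not stated.

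Pabpc4, the inducible form, changed in level relative to Pabpc1. It was at 195, 181, 92.6 and 97.5 RPKM from R2 to R5, high in the earlier pair of libraries and low in the later pair as deposited. With median scaling the order turned, with 89.8 in R2 as the lowest, 153 in R3, 167 in R4 as the highest and 136 in R5. R3 was 1.08-fold below R2 (1.05 to 1.10), at percentile 85.7, and R4 was 1.95-fold below R3 (1.90 to 2.01), at percentile 35.5, against 70.9 and a log2 ratio of 0.12 with median scaling. Within a library, Pabpc1 was at 3.63 times the level of Pabpc4 in R2, 3.05 times in R3, 10.2 times in R4 and 6.15 times in R5. That change in make-up between R3 and R4 does not depend on how the libraries are scaled to each other. Pabpn1, which binds polyA in the nucleus, was at 204, 76.5, 31.6 and 47.3 RPKM. Pabpc1l had at most an estimated 18 reads, Pabpc2 at most 3, and Pabpc4l and Pabpc5 were listed at 0 in every library.

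The nearest genes to Pabpc1 in pattern were Gm1821 at a distance of 0.15, Ube2r2, a ubiquitin-conjugating enzyme gene, at 0.19, and Ube2f, which conjugates NEDD8, at 0.24. Those of Pabpc4 were Numa1, a spindle pole protein gene, at 0.05, Brd8 at 0.05 and Pctk1 at 0.06. Those of Zfp36l2 were Nop56, a gene of ribosome assembly, at 0.03, the initiation factor gene Eif4b at 0.05 and the splicing factor gene Prpf19 at 0.05.

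Read over the whole list, the members were split. As deposited, from R2 to R5, 1 of 10 was higher by 2-fold or more (Cpeb4, background 2.74%) and 5 were lower (background 76.9%). Their median ratio was -1.08, against -1.65 for all genes. In R3 against R2, 1 was higher (background 3.81%) and 5 lower (background 55.1%), with a median of -1.03 against -1.09. In R4 against R3, 0 were higher (background 0.493%) and 2, Zfp36l1 and Zfp36l2, were lower (background 32.1%), with a median of -0.18 against -0.77. In R5 against R4, 0 were higher (background 3.96%) and 1, Cpeb4, was lower (background 0.604%), with a median of 0.07 against 0.27. In R5 against R3, 0 were higher (background 0.664%) and 1, again Cpeb4, was lower (background 13.1%). The share of lower calls was near or under that of all genes in the first 3 of these comparisons, which share libraries with each other.

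**Figure D3:**
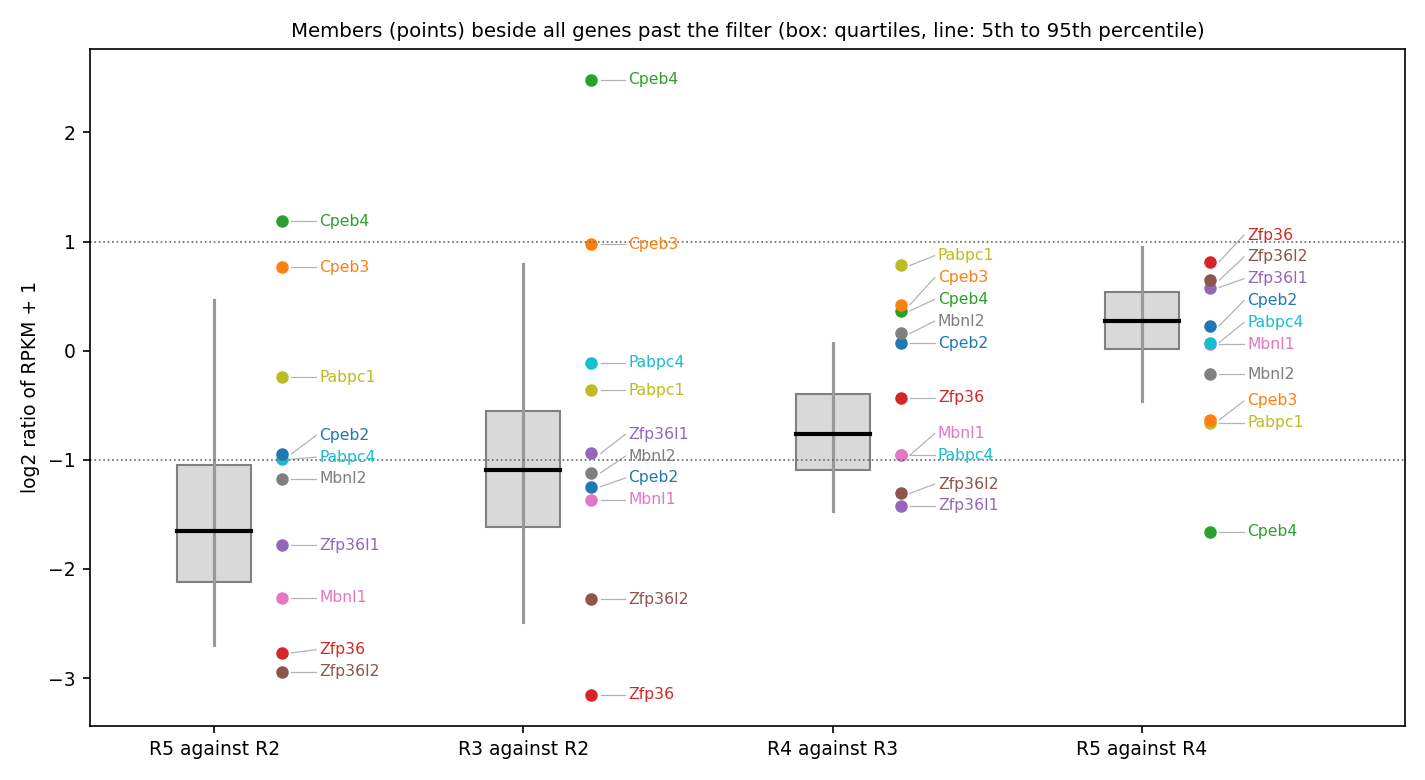
Log2 ratio of RPKM + 1 (y axis) of the 10 members, as labelled points, in 4 comparisons (x axis), beside the 9942 genes past the filter (box, quartiles with the median as a bar; vertical line, 5th to 95th percentile; dotted lines, 2-fold). Cpeb4 lay at 2.48 in R3 against R2 and at -1.66 in R5 against R4, and Zfp36 at -3.15 in R3 against R2.

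The scaling between libraries set some directions. With median scaling, from R2 to R5, 3 members were higher by 2-fold or more (background 9.42%), namely Cpeb3, Cpeb4 and Pabpc1, and 2, Zfp36 and Zfp36l2, were lower (background 13.7%). From R2 to R3, 2 were higher (background 8.38%) and 2 lower (background 18.0%). Pabpc1 had log2 ratios of -0.24, 1.36 and 1.01 from R2 to R5 under the deposited scale, median scaling and globin removal, and Pabpc4 had -0.99, 0.60 and 0.25. In R4 against R3 the same 3 genes were higher with median scaling (background 4.26%), with Pabpc1 at 1.87, Cpeb4 at 1.44 and Cpeb3 at 1.32, and 0 were lower (background 0.382%). From R4 to R5, 0 were higher (background 1.75%) and the same 3 were lower (background 2.56%). From R3 to R5, 0 were higher (background 2.94%) and 0 lower (background 0.986%). With the globin genes removed, 3 were higher (background 7.35%) and 3 lower (background 29.8%) from R2 to R5, and 2 (background 7.81%) and 2 (background 22.8%) from R2 to R3. The counts were 2 (background 1.98%) and 0 (background 2.83%) from R3 to R4, 0 (background 2.98%) and 1 (background 1.58%) from R4 to R5, and 0 (background 1.84%) and 0 (background 2.95%) from R3 to R5. Zfp36 from R3 to R4 went from -0.43 as deposited to 0.36 with median scaling and 0.05 with globins removed. In R3 against R2, Cpeb4 was higher and Zfp36 and Zfp36l2 were lower by 2-fold or more under each of the 3 scalings, and Cpeb3 had 0.97, 1.26 and 1.32.

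**Figure D4:**
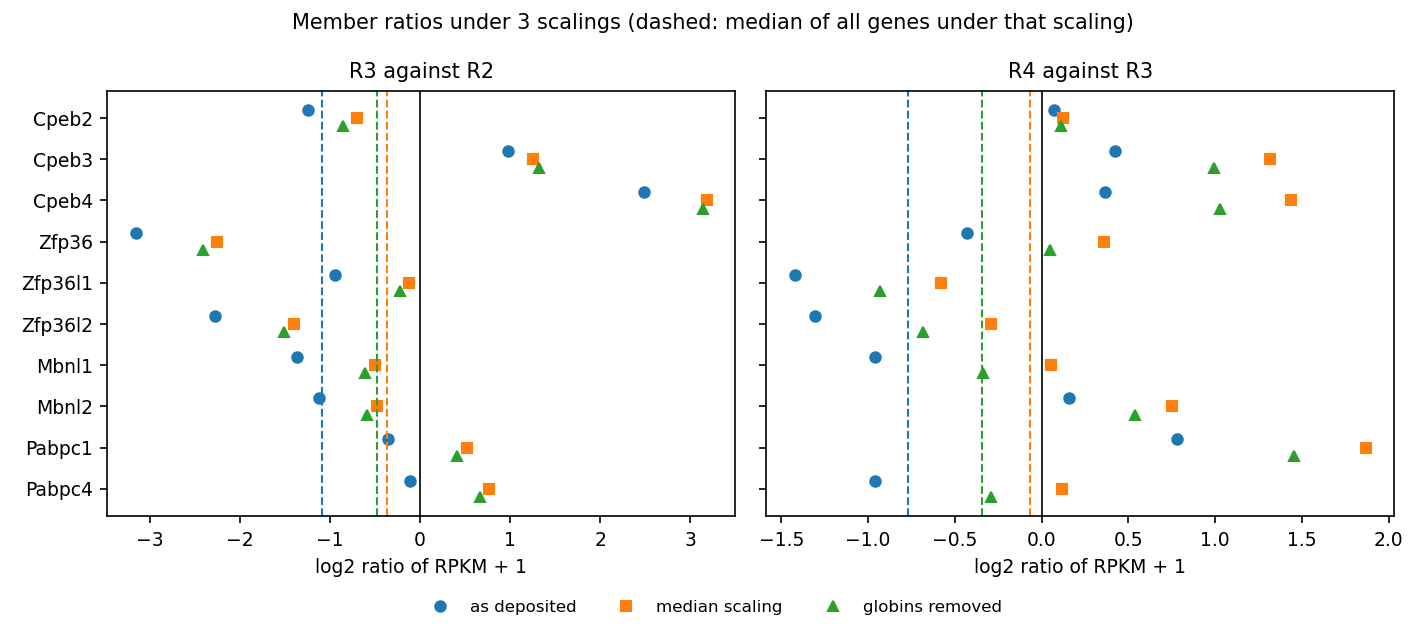
Log2 ratio of RPKM + 1 (x axis) of each member (y axis) in R3 against R2 and R4 against R3, as deposited, with median scaling and with the globin genes removed; the dashed lines are the medians of all genes under each. In R3 against R2, Cpeb4 lay right of 0 and Zfp36 left of it under each scaling, while Pabpc1 and Pabpc4 crossed 0.

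The machinery these regulators work through was set beside them, from lists written for each step. From R2 to R5, 2 of 18 deadenylation genes past the filter were higher (2.74% of all genes) and 14 lower (76.9% of all genes, near the share in the list), with a median of -1.89 against -1.65 for all genes. Cnot1, the scaffold of the CCR4-NOT complex, went from 30.9 to 4.0 RPKM, and Cnot6, one of its nucleases, from 32.4 to 4.74. The 2 higher ones were Btg2 and 2310035K24Rik, a CCR4-NOT subunit gene now named Cnot11, which went from 4.08 to 15.3 RPKM. All 19 decapping and decay genes were lower (all genes 76.9%), with a median of -1.90 against -1.65 for all genes. So were 15 of 16 genes of polyadenylation and polyA-binding partners (all genes 76.9%), with a median of -1.76. Aurka, the kinase that activates CPEB1 in oocytes, was the exception, at 50.8, 68.1, 37.1 and 44.2 RPKM from R2 to R5. With median scaling the lower counts were 3 of 18, 2 of 19 and 3 of 16 (all genes 13.7%).

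Translation initiation factor genes were lower from R2 to R5, as most genes were. All 13 genes of eIF4F and its regulators and all 13 subunits of eIF3 were lower by 2-fold or more (all genes 76.9%). Their medians were -2.14 and -2.01, against -1.65 for all genes. With median scaling 5 and 0 were lower (all genes 13.7%), with medians of -0.58 and -0.41 against -0.42. The eIF3 complex is reported to bind CPEB4. Eif4b went from 191 to 23.6 RPKM, and Eif3f from 356 to 88.0. Pabpc1, which binds the eIF4G subunit, stayed within its 1.72-fold range as deposited.

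Among 28 other regulators of stability and translation, 1 was higher and 24 lower from R2 to R5 (all genes 2.74% and 76.9%), with a median of -1.94. With median scaling the counts were 1 and 4 (all genes 9.42% and 13.7%). The higher one was Rbm38, an RNA-binding protein of cell cycle arrest and splicing, at 212, 683, 847 and 761 RPKM from R2 to R5. Its R5 level was within 2-fold of R4, where Cpeb4 was lower by more than that. Ybx1, a cold shock protein that packs messages, was at 321, 52.1, 21.5 and 47.6. Of 21 splicing regulators, 0 were higher and 20 lower (all genes 2.74% and 76.9%), with a median of -2.20 against -1.65 for all genes. With median scaling the counts were 0 and 3 (all genes 9.42% and 13.7%), with a median of -0.66 against -0.42. Ptbp1 went from 353 to 52.7 RPKM, and Sfrs5 from 104 to 56.6, within 2-fold.

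Messages known as ZFP36 family targets did not share 1 course. Of 18 listed, 10 passed the filter, of which 2 were higher and 6 lower from R2 to R5 (all genes 2.74% and 76.9%), with a median of -1.91. With median scaling 3 were higher and 4 lower (all genes 9.42% and 13.7%). Csf2 and Il3, cytokine genes, were at 0 in every library. Pim1, a survival kinase gene, was at 59.2, 192, 283 and 232 RPKM from R2 to R5, and Ier3 was the other higher one. Myc was at 118, 15.8, 7.21 and 13.5 RPKM, as deposited the same order of libraries as Zfp36l2, with R5 just under R3. The log2 ratio of Myc in R5 against R3 was -0.21 as deposited and 0.47 with median scaling.

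Over all genes, those with the ARE or CPE letters shown above had medians near those without. The 859 genes past the filter with an ARE match had a median log2 ratio of -1.01 in R3 against R2, with quartiles of -1.49 and -0.54, against -1.08 for the 5185 without, with quartiles of -1.60 and -0.56. In R5 against R4 the medians were 0.15 and 0.22. For the 2932 genes with a CPE match the medians were -1.03 in R3 against R2 and 0.16 in R5 against R4, against -1.12 and 0.26 for the 3112 without. Windows with the CPE letters were richer in A and T, at a median of 60.8% against 54.4%.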

How the data were processed

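RNA-seq of polyA-enriched RNA was done on 4 sorted populations of mouse fetal liver, 1 library each, per the labels' protocols. The values are RPKM per gene symbol, with 2 decimals, as the authors deposited them. The build was mm9, per the submitters' processing notes. The aligner, the counting program and the annotation are not given in the sources used. Since symbols come without coordinates, all coordinates printed are of GRCm38, from the reference sequences.

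From the deposited RPKM, log2 ratios of RPKM + 1 were computed with Python 3.11.15, numpy 2.4.6, pandas 2.3.3 and scipy 1.17.1 for genes that reached 1 RPKM in 1 or more libraries. Reads were estimated from the smallest value steps of short-counted genes such as Gapdh and from the longest RefSeq-linked GENCODE transcript. Intervals are exact 95% Poisson intervals for levels and Clopper-Pearson intervals for folds; lengths that differ from the authors' would change their width. The 2-fold calls were tested on simulated counts with planted changes in genes at 10 RPKM or more, without a shift of the other genes. The scalings, percentiles, nearest patterns, read estimates and motif searches were not tested in this way. The alternatives took a pseudocount of 0.1 or 5 RPKM, a filter of 5 RPKM or none, median scaling over 2745 genes, removal of the globin genes, and R3 in place of R2.

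The genes named were all members and their relatives, the 3 genes nearest in pattern to each member at 10 RPKM or more, and, from each of 17 other lists, those of highest mean and of highest or lowest ratio. Of the 244 entries of those lists, 9 were not matched to a symbol. Members and lists were chosen with earlier results of these data known. Csf2, Il3, Cd3e and Cd163, named as listed at 0, were chosen after their values were seen. A gene that this rule names is not reported here.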

Additional observations from a re-analysis of the deposited data

How the results depend on the processing

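No paired analysis was possible because each population has 1 library, and for the same reason no library could be left out of a group. Each population is 1 sort, so the spread between sorts is unknown, and estimated reads bound counting error only. As reported, the members at least 2-fold higher and lower numbered 1 and 5 from R2 to R5 (all genes 2.74% and 76.9%). The counts were 1 and 5 from R2 to R3 (3.81% and 55.1%) and 0 and 2 from R3 to R4 (0.493% and 32.1%). From R4 to R5 the counts were 0 and 1 (3.96% and 0.604%). With a pseudocount of 0.1 RPKM, 2 were higher from R2 to R5 (all genes 3.51%), 2 from R2 to R3 (4.82%) and 2 from R4 to R5 (16.0%). Under this setting 7 were lower from R2 to R5 (84.0%), 6 from R2 to R3 (64.0%) and 3 from R3 to R4 (59.1%). With a pseudocount of 5 RPKM, 0 were higher (all genes 1.85%) and 4 lower (47.8%) from R2 to R5. There were 3 lower from R2 to R3 (29.9%) and 1 lower from R3 to R4 (9.76%). With a filter of 5 RPKM, 4 were lower from R2 to R5 (all genes 82.9%) and 3 from R2 to R3 (59.7%), since fewer members were counted. With median scaling, 3 were higher and 2 lower from R2 to R5 (all genes 9.42% and 13.7%). The counts were 2 and 2 from R2 to R3 (8.38% and 18.0%) and 3 and 0 from R3 to R4 (4.26% and 0.382%). Lower from R4 to R5 were 3 (2.56%), with Cpeb3 and Pabpc1 at the limit. With the globin genes removed, 3 were higher and 3 lower from R2 to R5 (all genes 7.35% and 29.8%). The counts were 2 and 2 from R2 to R3 (7.81% and 22.8%) and 2 and 0 from R3 to R4 (1.98% and 2.83%). With R3 in place of R2 as the early library, 0 were higher and 1 lower in R5 (all genes 0.664% and 13.1%). The log2 ratios of Cpeb4 and Zfp36 then turned to -1.30 and 0.38. Single log2 ratios were set against the mean reach of their counting interval to either side. For Cpeb2 in comparisons with R3, which had no reads, the open limit was set to a fixed value, so that interval is very wide. Of 40 such ratios, 28 moved by less than that reach with the pseudocount of 0.1 RPKM. The numbers were 16 with that of 5 RPKM, 7 with median scaling and 8 without globins. Leaving out the filter changed none of these counts. The cause was not tested.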
